A study of Mus musculus with 39 samples.

Results

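The mature miRNAs of the let-7 family other than let-7c and let-7e were followed through the first 5 days of mouse embryonic stem cell (ESC) differentiation. The members were taken by name from the array's rows: mmu-let-7a, mmu-let-7b, mmu-let-7d, mmu-let-7f, mmu-let-7g, mmu-let-7i and mmu-miR-98, which are 7 of 650 miRNA rows and are written below without the species prefix. They were named as the let-7 miRNAs apart from the miR-99/125 clusters, but 1 of the genes that encode let-7a does lie in such a cluster, as given below. Levels came from 39 Agilent 1-colour arrays in 13 groups of 3. Undifferentiated TCL-1 ESCs (129/SvJae mice), kept with LIF on mitomycin C-treated mouse embryonic fibroblast (MEF) feeders, formed 1 group, in which the feeders are a possible source of RNA. For the other 12 groups, cells were left on gelatin for 1 h to remove feeders, plated on collagen and kept in RPMI medium with B27 and sodium butyrate for 1, 3 or 5 days. The control received no growth factor. The treated cells received Wnt3a at 50 ng/ml, Activin A at 100 ng/ml, or the 2 factors together. B27 and sodium butyrate were therefore shared by the controls and every treated group. All cells were of 1 ESC line, and the labels do not say that the 3 samples of a group were separate cultures, so the p-values measure only the spread between these samples.

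The let-7 miRNAs are small RNAs that guide silencing complexes to messenger RNAs, mostly through pairing of their seed. In pluripotent cells the RNA-binding proteins of the LIN28 family bind let-7 precursors and block their maturation, so mature let-7 is typically scarce in ESCs although the precursors are transcribed. Fibroblasts and most other differentiated cells contain mature let-7, and let-7 targets include regulators of proliferation and the LIN28 messenger RNAs themselves.

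The mature sequences below (RefSeq, GRCm38.p6) show how alike the members are, which bears on what an array can tell apart. Capitals mark the seed, bases 2 to 8 counted from the 5′ end, which is GAGGUAG in all 7 members and in let-7c and let-7e.
let-7a: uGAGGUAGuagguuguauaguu
let-7b: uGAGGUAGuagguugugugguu
let-7d: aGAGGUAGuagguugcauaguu
let-7f: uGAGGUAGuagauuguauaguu
let-7g: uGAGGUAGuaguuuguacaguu
let-7i: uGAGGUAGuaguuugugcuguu
miR-98: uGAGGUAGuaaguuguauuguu
let-7c: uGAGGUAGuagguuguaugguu
let-7e: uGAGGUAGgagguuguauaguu

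Each sequence is 22 bases long. Against let-7a, and counted from the 5′ end with the let-7a base first, let-7f has G12A, let-7b has A17G and A19G, let-7d has U1A and U16C, let-7g has G12U and U18C, miR-98 has G11A and A19U, and let-7i has G12U, A17G, U18C and A19U. Of the nonmember relatives, let-7c has A19G and let-7e has U9G. Any pair of the 7 members differs at 1 to 6 bases. Each member was measured by 2 probes of 10 spots each, and how much signal a probe took from a near-identical relative was not tested.

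The members are encoded at several loci (GRCm38.p6). Mirlet7a-1 (chr13:48538179-48538272), Mirlet7f-1 (chr13:48537829-48537917) and Mirlet7d (chr13:48536012-48536114) lie together on the minus strand and overlap no annotated gene, with gaps of 261 and 1714 bases. Mirlet7b (chr15:85707319-85707403, plus strand) lies within the long noncoding RNA gene Lncppara, 621 bases from Mirlet7c-2. Mirlet7f-2 (chrX:151912346-151912428) and Mir98 (chrX:151913214-151913321) lie 785 bases apart on the plus strand within the protein-coding gene Huwe1. Mirlet7g (chr9:106178840-106178927, plus strand) lies within the protein-coding gene Wdr82, and Mirlet7i (chr10:122985640-122985724, minus strand) overlaps no annotated gene. Mirlet7a-2 (chr9:41536716-41536811, plus strand) lies within the long noncoding RNA gene Mir100hg, 5211 bases from Mir100 and 45114 bases from Mir125b-1. Both let-7a genes give the same mature miRNA, so the array cannot tell apart let-7a made at the chromosome 13 locus and let-7a made in the miR-100/125b cluster, and the same holds for the pair of let-7f genes. Let-7c and let-7e each have a copy beside a cluster miRNA, Mirlet7c-1 at 656 bases from Mir99a and Mirlet7e at 367 bases from Mir125a, although Mirlet7c-2 lies beside Mirlet7b.

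The arrays detected 183 to 375 miRNAs each. The scanner output sets an undetected miRNA to a total signal of 0.1. The lowest detected normalized signal lay between 12.3 and 34.4 on the arrays of ESCs and day 1. It was 11.3 or below on those of days 3 and 5, so on the normalized scale the limit of detection was higher early. As deposited, the lowest detected total signals were 3.16 to 6.76 on the ESC and day 1 arrays. Those of days 3 and 5 had 2.88 to 6.28, so the deposited ranges largely overlapped. The array of Wnt3a at day 5, replicate 1, stood apart, with a root mean square log2 distance of 1.14 from the other replicates of its group over 143 miRNAs detected on all arrays, against 0.62 and 0.77 for the other replicates of that group and up to 0.35 for the remaining arrays. In the authors' processed matrix, 18 of 39 columns rank the miRNAs as the scan of another array does, with Activin A and Activin A plus Wnt3a exchanged. Groups follow the labels of the scans, and if the matrix were right these names would be exchanged.

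Over the 13 groups the let-7 members were low in ESCs, higher on day 1 and lowest on days 3 and 5. Of the members, 6 were measured and 1, miR-98, was undetected on all 39 arrays. Let-7a and let-7f were detected on 23 of the 24 arrays of days 3 and 5, the exception being Wnt3a day 5 replicate 1. Let-7b, let-7d and let-7i were undetected on all 24, and let-7g was detected on 1 of them, Wnt3a day 5 replicate 2, at a total signal of 7.08. All 6 measured members differed among the groups in limma's F-test, as did 88.5% of the 373 miRNAs tested. The highest adjusted p among them was 7.94e-13, for let-7a.

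**Figure D1:**
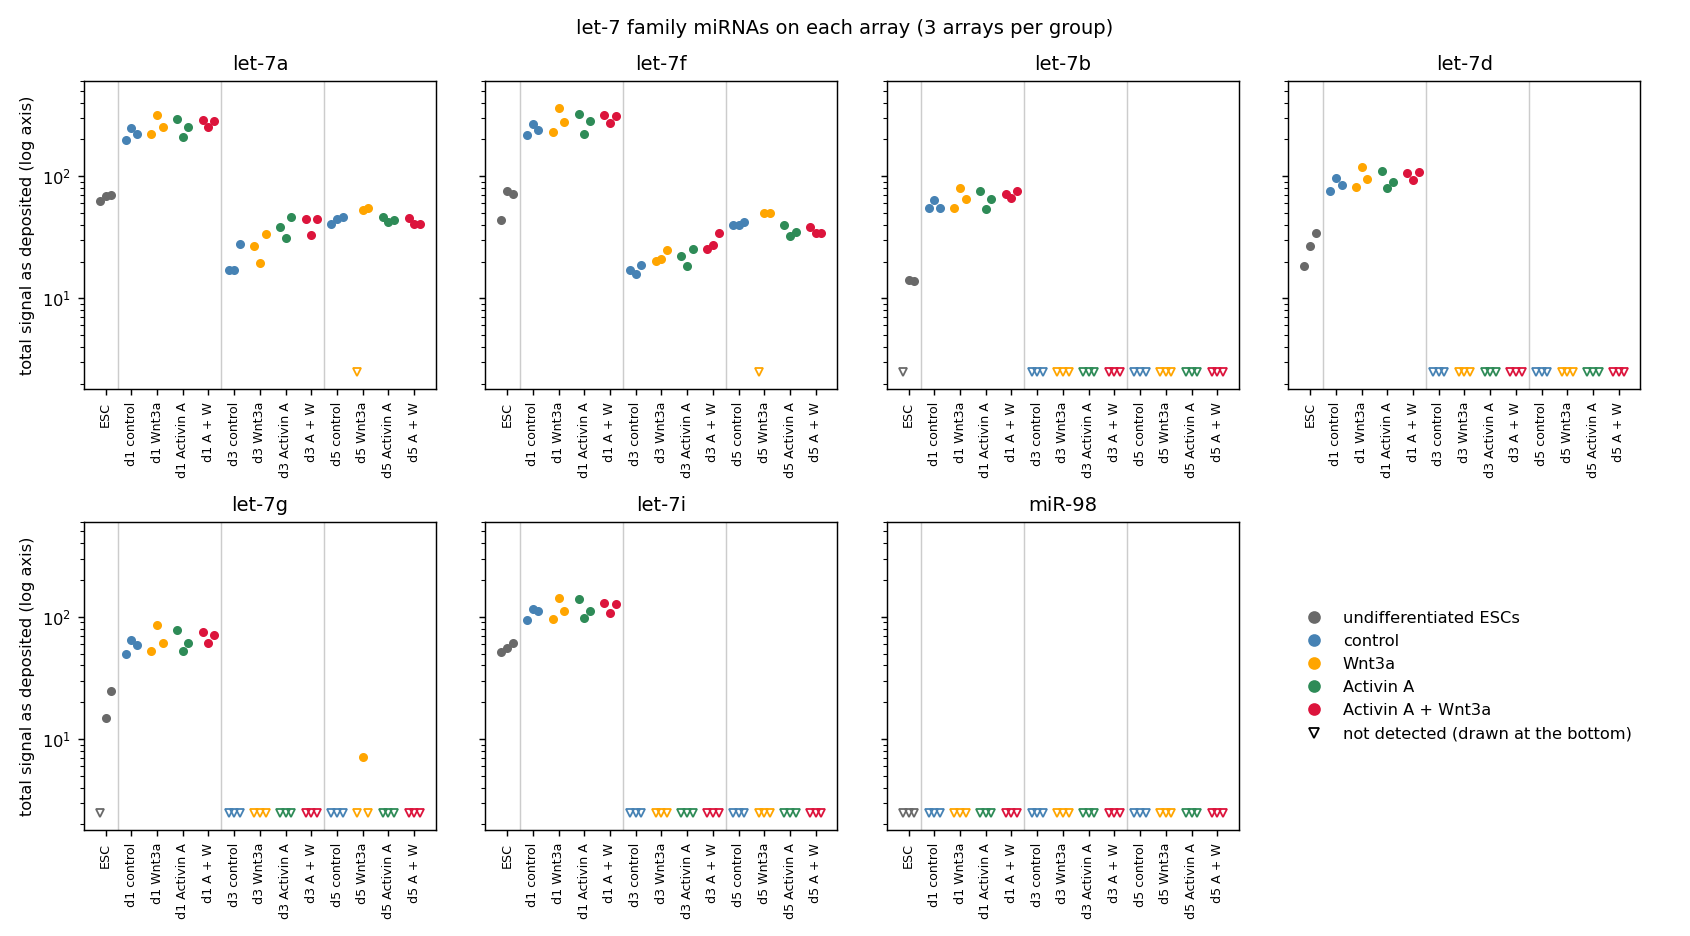
Total signal as deposited (vertical log axis, intensity units) of each let-7 member on each array, grouped along the horizontal axis by ESCs and by day (d1, d3, d5) and treatment, with A + W for Activin A plus Wnt3a. Filled points are detected arrays and open triangles undetected ones, drawn at the bottom. The 12 arrays of day 1 lie above the ESC arrays for 6 members, and on days 3 and 5 only let-7a and let-7f are detected, except for let-7g on 1 array.

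The first comparison set control cells at day 1 against undifferentiated ESCs, the step out of the self-renewing state without a growth factor. Let-7a had total signals of 62.6, 69.4 and 70.6 in the 3 ESC samples and 199, 250 and 220 in the control samples of day 1. Let-7f had 44.0, 75.1 and 72.0 in ESCs and 216, 268 and 240 at day 1. The lowest day 1 array of each lay well above the highest ESC array, and no array of the groups overlapped.

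Let-7d had total signals of 18.4, 27.1 and 34.2 in ESCs and 75.7, 96.5 and 84.6 in control cells at day 1. Let-7i had 51.7, 56.0 and 61.5 in ESCs and 94.3, 115 and 113 at day 1. Both were again higher on every day 1 array than on any ESC array, let-7i by the narrower margin. Let-7b was undetected in ESC replicate 1 and had 14.2 and 13.9 in the other ESC samples, against 55.0, 64.1 and 55.3 at day 1. Let-7g was undetected in ESC replicate 1 as well and had 15.0 and 24.9 in the other ESC samples, against 49.4, 64.5 and 59.2 at day 1. For both, the undetected ESC sample enters the mean at the floor.

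Of the 6 members tested, 5 rose past the adjusted p of 0.05 and 2-fold (limma, Benjamini-Hochberg over 373 miRNAs), where 8.58% of all miRNAs tested rose. The log2 difference was 1.53 ± 0.48 (SE) for let-7a (adjusted p = 0.0122, 2.90-fold), 1.82 ± 0.46 for let-7f (adjusted p = 0.00233, 3.54-fold) and 1.56 ± 0.10 for let-7d (adjusted p = 1.09e-13, 2.94-fold). Let-7b differed by 3.08 (8.44-fold, adjusted p = 4.79e-05) and let-7g by 2.82 (7.08-fold, adjusted p = 0.000391), and without ESC replicate 1 these were 1.67 (3.18-fold) and 1.29 (2.45-fold), both still called. Let-7i differed by 0.78 ± 0.06, or 1.72-fold (adjusted p = 3.67e-11), and stayed under the 2-fold limit. On the 24 arrays of days 3 and 5, let-7b, let-7d, let-7g and let-7i sat at the floor throughout on the normalized scale. Those arrays thus add no spread to the SE and p of these 4. In a fit of the ESC and day 1 arrays alone the SE was 0.15 for let-7d (adjusted p = 5.88e-06), 0.09 for let-7i (3.9e-05), 0.86 for let-7b (0.0106) and 0.94 for let-7g (0.0244), and the same 5 members were called. The median over the 6 members was 1.69 on the log2 scale, against 0.00 over all miRNAs tested. Every control day 1 array lay above every ESC array for all 6, a position held by 22.3% of the miRNAs tested. All ESC and control day 1 arrays lay on 1 slide.

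The levels of day 1 were above those of ESCs in the treated cells as well. Over the 12 arrays of day 1, control and treated, let-7a ranged from 199 to 314 (median 253) and let-7f from 216 to 363 (median 275). Let-7d ranged from 75.7 to 118 (median 93.5) and let-7i from 94.3 to 142 (median 113). Let-7b ranged from 54.2 to 79.6 (median 65.3) and let-7g from 49.4 to 85.5 (median 61.0). All 12 day 1 arrays exceeded all ESC arrays for each of the 6, whose highest ESC signals were those given above. Summed over the members, the signal was 0.304% to 0.488% of all detected signal in ESCs and 1.05% to 1.33% at day 1.

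Between day 1 and day 3 all 6 measured members fell in the control and in every treatment. In control cells let-7a had total signals of 17.0, 17.1 and 27.8 at day 3, and let-7f had 17.0, 15.9 and 18.7. These lay below every array of day 1 and also below every ESC array. Let-7b, let-7d, let-7g and let-7i were undetected on all 12 arrays of day 3, so their change is given as a bound on the normalized scale. It runs from the day 1 mean to the lowest normalized signal of any miRNA that the day 3 arrays detected.

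In control cells let-7a fell by 4.47 ± 0.48 on the log2 scale (22.2-fold, adjusted p = 2.52e-09) and let-7f fell by 4.96 ± 0.46 (31.0-fold, adjusted p = 1.71e-10). Let-7b was at least 22.4-fold lower, let-7d at least 34.7-fold, let-7g at least 22.2-fold and let-7i at least 42.6-fold. All 6 of 6 were called lower, where 17.2% of all miRNAs tested were, and the median of all miRNAs tested was 0.50, above 0. Only let-7a and let-7f were called on measured day 3 levels. Let-7b, let-7d, let-7g and let-7i passed the detection filter only through ESCs and day 1. Their calls came from the floor at day 3 and add no separate support. No day 3 control array reached a day 1 control array for any of the 6, a position held by 13.7% of the miRNAs tested.

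The treated cells were measured in the same way. With Wnt3a, let-7a fell by 4.13 (17.5-fold) and let-7f fell by 4.64 (24.9-fold), and let-7b, let-7d, let-7g and let-7i were at least 35.3-fold, 54.8-fold, 34.7-fold and 64.8-fold lower. With Activin A, let-7a fell by 3.58 (11.9-fold) and let-7f fell by 4.51 (22.8-fold), and the same 4 were at least 25.3-fold, 37.8-fold, 24.8-fold and 46.3-fold lower. With both factors, let-7a fell by 3.44 (10.9-fold) and let-7f fell by 4.24 (18.9-fold), with bounds of 32.7-fold, 48.0-fold, 31.5-fold and 60.7-fold. All 6 of 6 were called lower in each course, the same 4 again through the floor at day 3. The shares of all miRNAs tested were 14.5% under Wnt3a, 15.0% under Activin A and 13.7% under the 2 together.

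**Figure D2:**
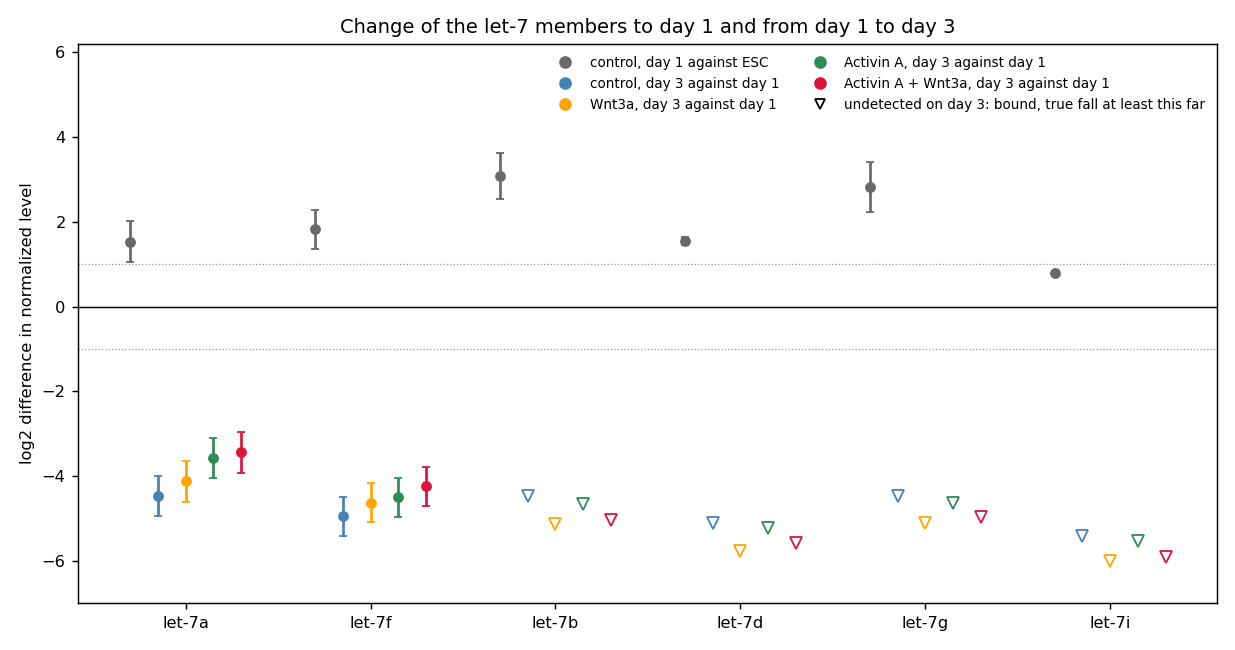
Log2 difference in normalized level (vertical axis) of each measured let-7 member from ESCs to control day 1 and from day 1 to day 3 within each treatment. Filled points are limma estimates with their SE as bars, open triangles are bounds for members undetected on all 3 day 3 arrays, and dotted lines mark 2-fold. The day 1 points lie between 0.78 and 3.08, and the day 3 points and bounds all lie below -3.

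Array layout differed between days, so the fall was also read within a slide and with slide as a block. The 1 slide that held both days had 7 arrays of day 1 (Wnt3a, Activin A or both) with let-7a between 219 and 314, and control day 3 replicate 1 with 17.0. With slide as a block, let-7a fell by 4.66 (adjusted p = 0.000548) and let-7f fell by 4.80 (adjusted p = 0.000338) in control cells, and all 6 members were called lower in every course. With both factors, the arrays of days 1 and 3 lay on different slides from different scan sessions, which shared no group. For that course slide entered only as a correlation between arrays of a slide. Its fall therefore cannot be told apart from slide and session. The 24 values of 6 members in 4 courses were called in 382 of 384 recalculations under other processing and in 936 of 936 with 1 array left out. Most of these values belong to let-7b, let-7d, let-7g and let-7i, undetected on every day 3 array. Their calls rest largely on the floor, so the counts say little about the size of their fall. The 2 that were not called were let-7g with Wnt3a (-0.92) and with both factors (-0.98) after normexp background correction, just under 2-fold.

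The signal summed over the members gave the same course. It was 177 to 277 in ESCs and 690 to 1101 on the arrays of day 1. It then was 33.0 to 78.9 on those of day 3 and 0 to 109.6 on those of day 5, the 0 being Wnt3a day 5 replicate 1. Of all detected signal it made up 0.0376% to 0.0673% at day 3 and at most 0.100% at day 5.

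Because the ESCs came from feeder co-culture, miRNAs typical of fibroblasts and other mesenchymal cells were followed beside the members. The list held 14 miRNAs, of which 13 were tested, and 6 defined it: miR-199a-3p, miR-199a-5p, miR-214, miR-143, miR-145 and miR-21, the last of which many cell types express. Its summed signal without miR-21 was 1006 to 1118 in ESCs and 1693 to 3142 on day 1, then 265 to 538 on day 3, then 482 to 1396 on day 5. With miR-21 the ranges were 2570 to 2784, 3403 to 5462, 1275 to 2282 and 1273 to 4106. The list thus had its highest sums at day 1, as the members did, and its lowest at day 3 when miR-21 was left out.

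From ESCs to control day 1, 0 of the 13 were called, 4 were higher by the adjusted p alone (17.4% of all miRNAs tested were) and the median log2 difference was 0.52, or 0.37 with miRNAs undetected in ESCs at their bound, where the members' median was 1.69. MiR-199a-3p had 118 to 139 in ESCs and 296 to 365 in control cells at day 1 (log2 difference 1.33, adjusted p = 0.0923), and miR-214 had 18.6 to 24.0 and 26.8 to 49.8. MiR-145 was undetected in ESCs and on day 1, and miR-143 in ESCs. From day 1 to day 3 in control cells 8 of the 13 were called lower, where 17.2% of all miRNAs tested were, and the median was -2.53. A further 3 were called higher, and with undetected groups at their bound 1 was. For miR-100, miR-152 and miR-99a, which at most 1 of the 3 control arrays of day 1 detected at their higher normalized limit, no direction is given. MiR-199a-5p, miR-214, miR-143 and miR-145 were undetected on all 12 arrays of day 3, and miR-199a-3p was at 15.9 to 27.7 in control cells. Feeder RNA was not measured apart from these lists, and its part in the let-7 levels was not tested. In such bulk samples fewer cells of a type and less RNA per cell cannot be told apart.

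Markers of other cell states were read in the same way. The miR-290 cluster is abundant in pluripotent cells. Of its 9 listed miRNAs, 0 were called between ESCs and control day 1, and 6 fell by control day 3. Their summed signal in control cells was 15515 to 16054 at day 3 and 7094 to 7393 at day 5, against 29109 to 32372 in ESCs. At day 3 it was 25554 to 28098 with Wnt3a, 33736 to 42619 with Activin A and 32276 to 38883 with both factors. At day 5 these were 10258 to 20088, 27902 to 31595 and 25865 to 31301. With Activin A, alone or with Wnt3a, the sums of day 3 thus were not below the range of ESCs, while let-7 fell there too. The neural list, led by miR-124 and miR-9, had a summed signal of 182 to 274 in control cells at day 3 and 892 to 1175 at day 5. At day 3 it was 240 to 300 with Wnt3a, 92.1 to 134 with Activin A and 48.8 to 73.8 with both factors. At day 5 these were 680 to 3749, 130 to 166 and 53.6 to 62.9.

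**Figure D3:**
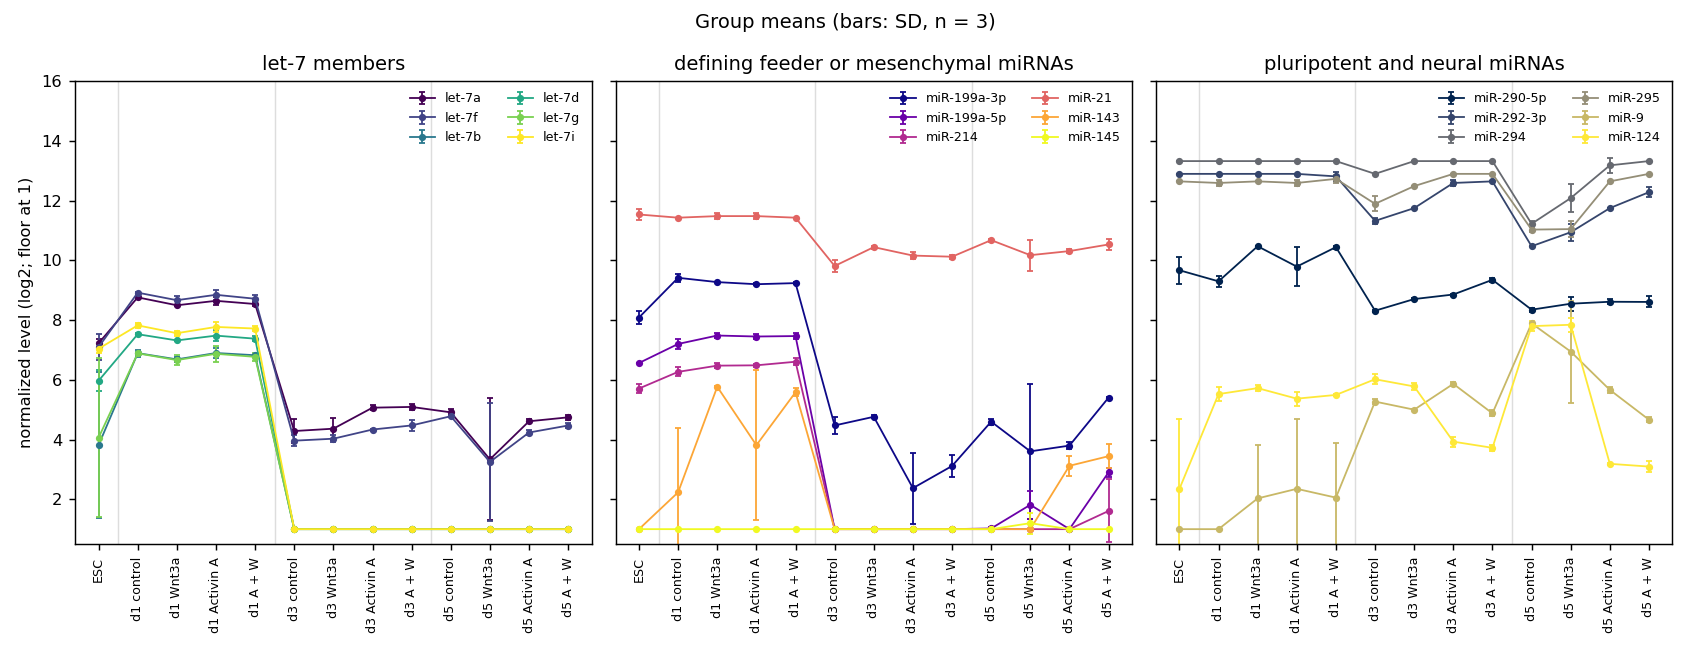
Mean normalized level (log2, floor at 1, vertical axis) in the 13 groups for the let-7 members, for the defining fibroblast miRNAs and for miRNAs of pluripotent and neural cells, with SD over 3 arrays as bars, some of which run below the axis. The let-7 members, miR-199a-3p, miR-199a-5p and miR-214 are highest at day 1 and drop at day 3, whereas miR-9 is undetected in ESCs and detected in every group of days 3 and 5. The defining miRNAs did not all share this course. MiR-145 is detected only at day 5, with Wnt3a or Activin A alone. MiR-143 is undetected in ESCs and at day 3, and detected at day 1 and in the treated groups of day 5.

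The miRNAs most like the members were ranked by Pearson's r between group means over the 13 groups, as a description, among 363 miRNAs outside the family. The 10 nearest were miR-214 (r = 0.991), miR-22 (0.984), miR-199a-5p (0.976), miR-29c (0.973), miR-34b-5p (0.971), miR-29a (0.966), miR-150 (0.959), miR-199a-3p (0.956), miR-34c (0.949) and miR-199b* (0.943). Of these, 6 belong to the fibroblast list, which supplied 13 of the 363. That list was chosen with earlier results of these data known, so the count is a description and no independent support. The members themselves correlated with their own mean at 0.985 to 0.997. All points share the 39 arrays and the step between day 1 and day 3, and undetected groups sit at 1 common floor.

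From day 3 to day 5, let-7a and let-7f were the members still measured, and neither passed the test. In control cells let-7a had 40.5, 44.6 and 46.0 at day 5, and let-7f had 40.0, 40.0 and 42.4. Every one of these total signals lay above every control day 3 array, a position held by 49.9% of the miRNAs tested. On the normalized scale let-7a differed by 0.63 (1.54-fold, adjusted p = 0.351) and let-7f by 0.82 (1.76-fold, adjusted p = 0.177). The fit's spread for both was set largely by Wnt3a day 5 replicate 1, where neither was detected, and without that array the differences were the same with an adjusted p of 0.00121 and 4.31e-05, still under 2-fold. By the scan times in the file headers, the arrays of day 5 and those of both factors at day 3 were scanned in 1 session and all others in another. No slide held control arrays of both days, so in control cells the step from day 3 to day 5 cannot be told apart from slide and session. The same holds for the cells given Wnt3a alone or Activin A alone. With both factors the arrays of these days shared a session but no slide.

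In no course was let-7a or let-7f called between days 3 and 5 (limma, 0 of 2), and the other measured members sat at the floor, against 18.5% of all miRNAs tested in control cells, 22.0% under Wnt3a, 6.7% under Activin A and 4.83% under the 2 together. The unadjusted p was under 0.05 for 1 of them, with Wnt3a. With Wnt3a, let-7a had 52.9 and 54.6 and let-7f 49.7 and 50.1 on the arrays that detected them, above all Wnt3a arrays of day 3, which were 19.5 to 33.9 and 20.3 to 25.0. The fitted differences of -1.03 for let-7a (adjusted p = 0.0827) and -0.78 for let-7f (adjusted p = 0.183) rest on replicate 1, and without it were 0.14 and 0.35. Let-7a had 46.3, 41.8 and 43.6 with Activin A at day 5, against 38.3, 31.5 and 46.4 at day 3, and 45.5, 40.9 and 40.7 with both factors, against 44.7, 32.8 and 44.6. In both courses the let-7a arrays of the 2 days overlapped. Let-7f had 40.2, 32.5 and 35.1 with Activin A at day 5, all above its 22.4, 18.5 and 25.3 of day 3, as 51.7% of the miRNAs tested were, but on the normalized scale it differed by -0.10 (adjusted p = 1). With both factors let-7f had 38.3, 33.9 and 34.0 at day 5, which overlapped 25.3, 27.3 and 34.3 at day 3.

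The cells given both factors had fibroblast miRNAs that rose without a called change of let-7. Between days 3 and 5, 6 of the 13 tested fibroblast miRNAs were called higher there and 0 lower, where 4.83% of all miRNAs tested were called in either direction. Among the 6 was miR-199a-3p, by 2.29 on the log2 scale. The arrays of the 2 days lay on different slides. MiR-199a-5p and miR-143, undetected there at day 3, were at least 2.16-fold and 3.14-fold higher at day 5 on the normalized scale. Over the same days let-7a differed by -0.35 (adjusted p = 0.895) and let-7f by 0.00 (adjusted p = 1). The difference between the lists was not tested.

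The next comparisons asked whether Wnt3a, Activin A or both moved the members within a day. At day 1, 0 of 6 were called in any of the 3 treatments against control (limma over 12 arrays), where the calls among the 240 miRNAs tested were 4.17% for Wnt3a, 0.0% for Activin A and 5.42% for the combination. The members with an unadjusted p below 0.05 numbered 4, 0 and 1. The differences were at most 1.20-fold. Let-7a differed from control by -0.26 on the log2 scale with Wnt3a (adjusted p = 0.0246) and by -0.22 with both factors (adjusted p = 0.0387), and with slide as a block these were -0.02 and 0.02. On day 1 no control array shared a slide with an array that received Wnt3a. Between both factors and Activin A alone 0 of 6 were called as well, against 0.833%.

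At day 3 only let-7a and let-7f passed the detection filter. Let-7a had 17.0, 17.1 and 27.8 in control cells, 26.9, 19.5 and 33.9 with Wnt3a, 38.3, 31.5 and 46.4 under Activin A, and 44.7, 32.8 and 44.6 under both factors. Let-7f had 17.0, 15.9 and 18.7 in control cells, 20.3, 21.1 and 25.0 with Wnt3a, 22.4, 18.5 and 25.3 under Activin A, and 25.3, 27.3 and 34.3 under both factors. For let-7a each array with Activin A, alone or with Wnt3a, was above each control array, while for let-7f the lowest array with Activin A alone fell inside the control range. Total signals all above those of control were found for 22.8% of the 373 miRNAs compared under Activin A and for 30.3% under both factors.

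Both miRNAs were higher than control with Activin A by the adjusted p, and neither passed 2-fold. With Activin A, let-7a was 0.78 ± 0.22 higher (1.72-fold, adjusted p = 0.0123) and let-7f 0.37 ± 0.11 higher (1.30-fold, adjusted p = 0.0174). With both factors, let-7a was 0.81 higher (1.75-fold, adjusted p = 0.0093) and let-7f 0.51 higher (1.42-fold, adjusted p = 0.00288). With Wnt3a alone let-7a differed by 0.08 (adjusted p = 0.83) and let-7f by 0.07 (adjusted p = 0.694), and both factors differed from Activin A alone by 0.03 (adjusted p = 0.977) and 0.14 (adjusted p = 0.406). The let-7f difference with Activin A was past the adjusted p in 9 of 17 recalculations under other processing, where it was 0.05 to 0.84 (adjusted p = 0.00351 to 0.745). It was not past it without control day 3 replicate 1 (0.0621) or 3 (0.0551) or Activin A day 3 replicate 1 (0.0532). The other 3 differences from control, let-7a in either treatment and let-7f with both factors, were past it in 15 of 17 each. At the 2-fold rule 0 of 2 were called in each, against 3.07% of the 326 miRNAs tested for Wnt3a, 19.0% for Activin A, 20.2% for both factors and 3.99% for both factors against Activin A. By the adjusted p alone 2 of 2 differed from control under Activin A and 2 of 2 under both factors, where 56.4% and 59.5% of all miRNAs tested differed in either direction.

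Slide bears on these values. With slide as a block, the Activin A difference was 0.57 for let-7a (adjusted p = 0.0384) and 0.31 for let-7f (adjusted p = 0.0623). The arrays with both factors lay on a slide of their own among those of day 3, so that for them slide and treatment cannot be told apart. Of the 10 fibroblast miRNAs tested at day 3, 1 was called higher and 4 lower with Activin A (median 0.07). With both factors 0 were called higher and 4 lower (median -0.04). Of all miRNAs tested, 19.0% and 20.2% were called in either direction. Among the list, miR-199a-3p differed from control by -2.10 on the log2 scale with Activin A (adjusted p = 0.00485, 1 of the 3 arrays undetected) and by -1.36 with both factors (adjusted p = 0.0356). MiR-199a-5p, miR-214, miR-143 and miR-145 were undetected in all 4 groups.

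At day 5 no difference passed for let-7a or let-7f (limma, 0 of 2 in each comparison, and 0 at an unadjusted p under 0.05), against 3.8% of the 368 miRNAs tested under Wnt3a, 25.0% under Activin A, 30.4% under both factors and 2.72% for both against Activin A. With Wnt3a the differences were -1.57 for let-7a (adjusted p = 0.282) and -1.53 for let-7f (adjusted p = 0.279), and without replicate 1 they were -0.41 and -0.40 (adjusted p = 0.0716 and 0.067). With Activin A, let-7f had 40.2, 32.5 and 35.1 against 40.0, 40.0 and 42.4 in control cells, a difference of -0.54 (adjusted p = 0.653) that had an adjusted p of 0.00699 without the Wnt3a array that stood apart.

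Whether the change over time differed between a treatment and the control was tested in 6 contrasts for let-7a and let-7f, since the other members sat at the floor from day 3. Of the 12 values 0 were called, where 5.09% and 2.14% of all miRNAs tested were called for Wnt3a, 10.2% and 9.92% for Activin A and 14.5% and 14.2% for both factors, over days 1 to 3 and 3 to 5 in turn. The unadjusted p was under 0.05 for 2 values, both with Wnt3a between days 3 and 5. Without Wnt3a day 5 replicate 1, 2 values of let-7a were called. Its change between days 3 and 5 with Activin A minus that in control was -1.08 (adjusted p = 0.000344), and its change between days 1 and 3 with both factors minus that in control was 1.03 (adjusted p = 0.000512). With both factors the arrays of days 1 and 3 came from different scan sessions, and those of control from the same session. The latter value therefore cannot be told apart from slide and session.

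Let-7c and let-7e, which share the seed and have copies beside miR-99a and miR-125a, were called higher than control with Activin A at day 3. Let-7c had total signals of 8.97 and 10.1 on the control arrays of day 3 that detected it, 36.1, 29.2 and 42.5 with Activin A and 29.2, 22.9 and 28.8 with both. Let-7e had 9.6 and 10.3 on the detecting control arrays, 43.3, 36.6 and 49.4 with Activin A and 44.6, 34.3 and 44.4 with both. Control day 3 replicate 2 detected neither, and no control array overlapped the arrays with Activin A.

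With Activin A at day 3, let-7c was 2.57 higher than control on the log2 scale (adjusted p = 0.00107) and let-7e was 2.88 higher (adjusted p = 0.000783), both called. Given both factors, they were 1.96 (adjusted p = 0.00461) and 2.68 higher (adjusted p = 0.000951). Without control day 3 replicate 2, at the floor for both, the values were 1.90 and 2.17 with Activin A and 1.29 and 1.98 with both factors, all still called. Under other processing, let-7c was called at day 3 in 16 of 17 recalculations with Activin A and in 13 of 17 with both factors (0.137 to 2.91). Let-7e was called in 16 of 17 with each. At day 5 let-7e was 1.77 higher under Activin A (adjusted p = 0.0417) and 2.34 higher under both factors (adjusted p = 0.00979), while let-7c differed by 0.65 and 0.62 and was not called. The day 5 call of let-7e was made in 10 of 17 recalculations under other processing with Activin A (0.285 to 3.102) and in 12 of 17 with both factors. With Activin A it was also lost (adjusted p = 0.061 to 0.109) when any 1 array of control, Activin A or both factors at day 5 was left out. Let-7a, 1 base from each of them, had 0.78 and 0.81 at day 3 in the same fits. Whether the responses of let-7a and of these relatives differ was not tested.

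**Figure D4:**
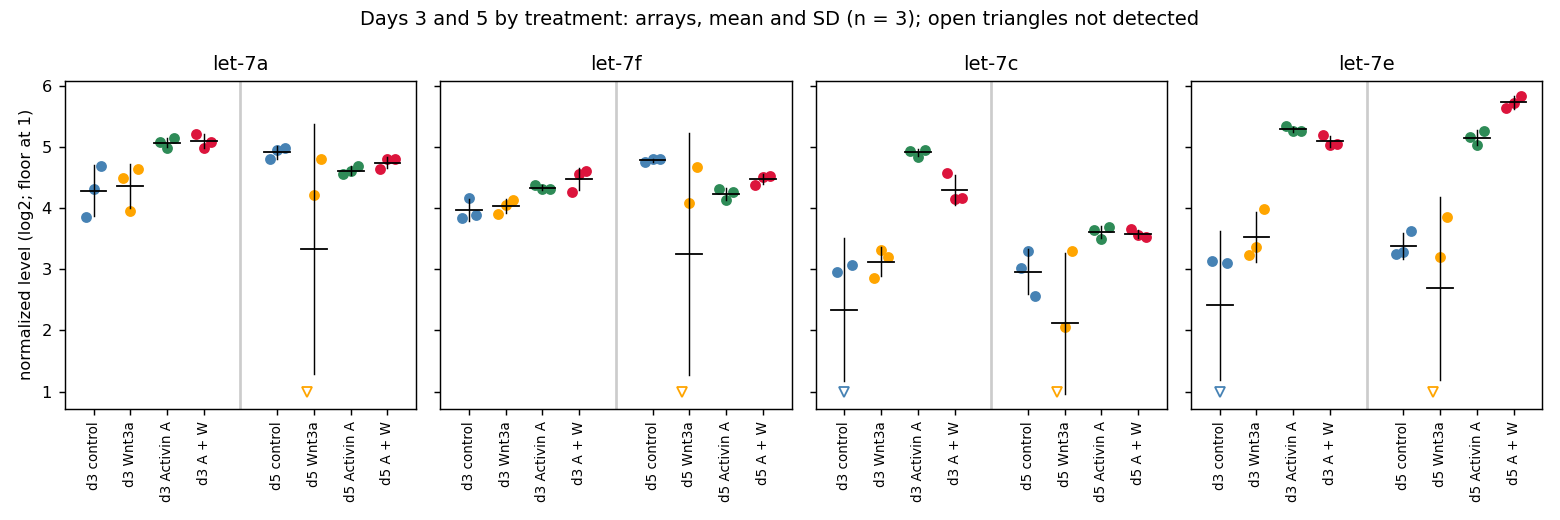
Normalized level (log2, floor at 1, vertical axis) of let-7a, let-7f, let-7c and let-7e on the arrays of days 3 and 5 by treatment, with the mean and SD of 3 arrays as lines and open triangles for undetected arrays. At day 3 let-7c and let-7e lie 1.96 to 2.88 above control with Activin A, alone or with Wnt3a, and let-7a and let-7f 0.37 to 0.81 above.

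The spots behind the undetected members were read probe by probe, as medians of spot signal minus local background. At days 3 and 5 the probes of let-7b, let-7d, let-7g and let-7i had array values between -4.62 and 11.2, and at most 7 of 240 spots of a probe were well above background. On day 1 the same probes had medians over arrays of 31.5 to 99.4. For miR-98, probe 1 had 2.65 to 8.89 on the 12 arrays of day 1, -2.20 to -1.28 in ESCs and -6.28 to -0.41 on the 24 arrays of days 3 and 5. Probe 2 had 3.98 to 11.7, -1.26 to 0.16 and -4.22 to -0.40. All 12 arrays of day 1 thus lay above all other arrays on both probes, but only 2 and 4 of 120 spots were well above background there, so miR-98 was not well above background on any array.

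**Figure D5:**
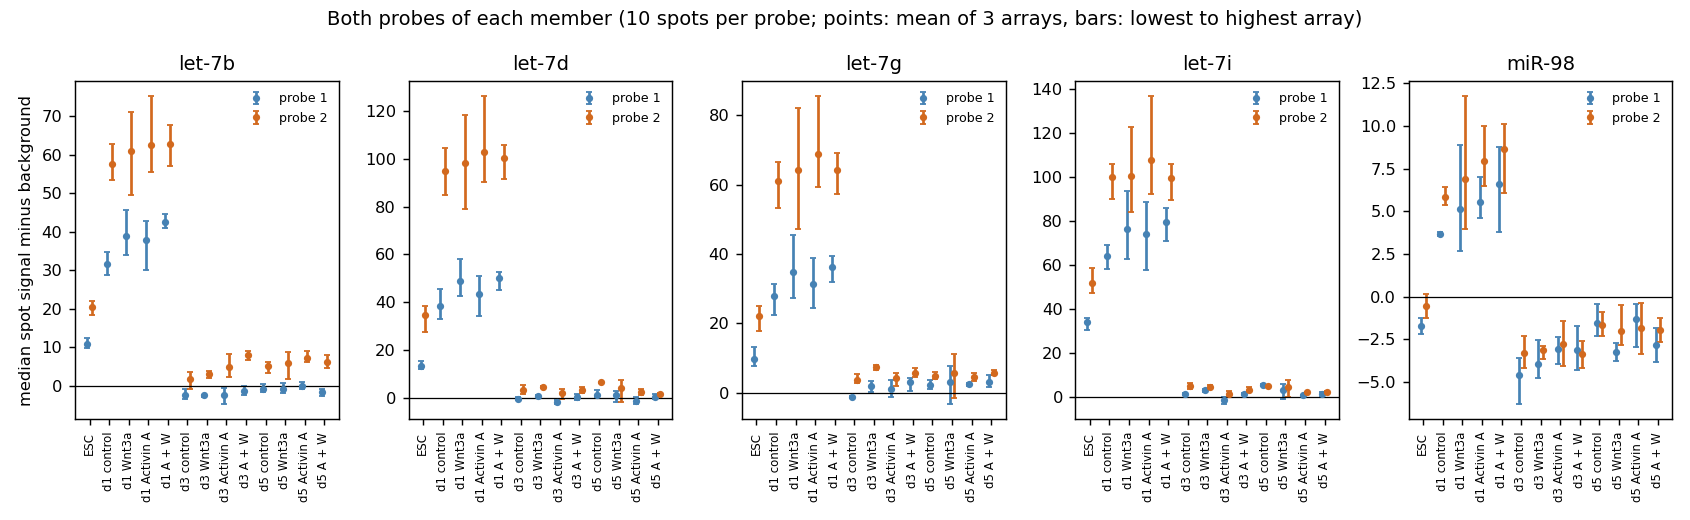
Median spot signal minus local background (vertical axis, intensity units) of both probes of let-7b, let-7d, let-7g, let-7i and miR-98 in the 13 groups, with points for the mean of 3 arrays and bars from the lowest to the highest array. Each panel has its own scale. The miR-98 probes are above 0 on the 12 arrays of day 1, at 2.65 to 11.7, far below those of the other members.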

How the data were processed

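MiRNA levels were measured on 39 Agilent 1-colour arrays, 1 per sample, in 13 groups of 3 taken from the sample labels. The authors deposited scanner output with intensity values: the Feature Extraction software (9.5.3.1 in the submitters' processing notes, 10.7.3.1 per the file headers) had subtracted the background and given every miRNA 1 total signal, over its probes, and a detection flag. The log2 values of the deposited series matrix were quantile normalized by the authors and served only as an alternative.

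Total signals were quantile normalized over 39 arrays (limma 3.58.1 in R 4.3.3). Values under 2 were set to 2 before log2 was taken. To be tested, a miRNA had to be detected on 2 of 3 arrays in at least 1 group of the fit. Changes over time, the F-test and differences in change were fitted over 39 arrays, and treatments over the 12 arrays of their day, with limma's two-sided moderated tests and Benjamini-Hochberg adjustment over all miRNAs tested. A call needed more than 2-fold and an adjusted p under 0.05. A group undetected on all 3 arrays gave a bound, from the other group's mean to the mean of the lowest normalized signals its own arrays detected. The number of arrays limits the precision. The fits were tested on simulated data.

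Named miRNAs were the 7 members, let-7c, let-7e, the star strands, the marker lists (14 fibroblast, 9 pluripotent, 5 neural) and the 10 miRNAs closest to the members' mean. The members and lists were chosen with earlier results of these data known. Alternatives were the 75th percentile, within-day, log2-scale or no normalization, a floor of 8, normexp correction with an offset of 50, the series matrix as named or, added after seeing the data, with columns matched to their arrays, a fit of the ESC and day 1 arrays alone (also added after seeing the data), both filters, 1 fit of all arrays, slide or replicate number as a block, the methods' plain test, single probes and each array left out. Mature sequences and positions are from RefSeq (GRCm38.p6), and all 9 let-7 names searched were matched.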

Additional observations from a re-analysis of the deposited data

Results flagged for a closer look

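Neither of the miRNAs flagged for a change over time that differed from control is a member of the group described. Let-7c and let-7e, their relatives with the same seed, passed the test of the difference itself (limma, 39 arrays). Both fell between days 1 and 3. With Activin A, let-7c fell by 2.60 less than in control on the log2 scale (adjusted p = 0.00112) and let-7e by 2.73 less (adjusted p = 0.00267). With both factors the values were 2.01 for let-7c (adjusted p = 0.00904) and 2.59 for let-7e (adjusted p = 0.00327). The arrays of days 1 and 3 with both factors came from different scan sessions, unlike those of control. These values with both factors therefore cannot be told apart from slide and session. Between days 3 and 5 with Activin A, let-7c changed by -1.92 relative to control (adjusted p = 0.013). Control day 3 replicate 2, where neither was detected, enters these values at the floor. Without it the values with Activin A were 1.93 for let-7c and 2.03 for let-7e between days 1 and 3, and 1.34 and 1.89 with both factors, all still called. The let-7c value between days 3 and 5 was then -1.25 (adjusted p = 0.0547) and no longer called. Under other processing, the day 1 to 3 values with Activin A were called in 15 of 16 recalculations for let-7c and 14 of 16 for let-7e. With both factors they were called in 12 of 16 for let-7c (0.197 to 2.94) and 14 of 16 for let-7e. The let-7c value between days 3 and 5 was called in 13 of 16 (-2.42 to -0.19).

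The spots of miR-98 were outside the comparisons because the software did not detect miR-98 on any array. Their median signals above local background were at least 2.65 for probe 1 and 3.98 for probe 2 on every array of day 1, above the highest ESC values of -1.28 and 0.16.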

How the results depend on the processing

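Over the 24 member values from day 1 to day 3 and the 6 from ESCs to control day 1, 0 changed sign under any alternative. The first kept a range of -7.53 to -0.92 on the log2 scale and the second 0.50 to 3.63, with 382 of 384 and 82 of 102 values called. Most of the first belong to members undetected at day 3, whose calls rest largely on the floor. The main counts of members called changed as follows, with the cause not tested. For control day 1 against ESCs 5 became 2 with normexp correction and 3 with the methods' plain test, which estimates each miRNA's spread from 6 arrays alone. For control day 5 against day 3, 0 became 1 with log2-scale quantile normalization, with the series matrix as named or matched, and with the dimmer probe. At day 3, 0 became 1 for Activin A and for both factors against control with log2-scale quantile normalization and either form of the matrix, and for both factors with no normalization. For Wnt3a against control at day 5, 0 became 2 in 1 fit of all arrays, and for Wnt3a day 5 against day 3, 0 became 1 with the brighter probe. For differences in change over time 0 became 2 with a floor of 8.

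With 1 array left out, the count was 0 to 1 for both factors against control at day 3 (1 without control day 3 replicate 3), 0 to 2 for Wnt3a day 5 against day 3 (2 without Wnt3a day 5 replicate 2 or 3, which leaves the array with neither let-7a nor let-7f detected more weight) and 0 to 2 for differences in change (2 without Wnt3a day 5 replicate 1, 2 or 3). The replicate numbers did not pair the samples: over 54 pairs of groups of the same number, deviations correlated at -0.496 to 0.414, with 19 above 0.1. With the replicate number as a block, 5 members rose at day 1, 6 fell at day 3 in every course and 0 were called in the other comparisons of time and treatment, the counts without the block. Scaling to the 75th percentile brought let-7i at day 1 to 1.13, past 2-fold. The median of all miRNAs from control day 1 to day 3, 0.50 here, was 1.18 with no normalization. Signal limits what could be seen: 44 of 91 pairs of member and group were undetected on all 3 arrays.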

Other observations

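The star strands are the other arms of the let-7 hairpins. Of 7 star strands on the array only let-7b* and let-7f* were detected on 2 or more arrays of a group. Both were undetected in ESCs and in control cells at day 1. There the normalized limit of detection was on average above their mean normalized level at day 3, so no change from day 1 is given. Let-7f* had total signals of 6.28 to 22.3 in control cells at day 3 and 23.0 to 30.8 at day 5, and on the normalized scale these days differed by -0.02 (adjusted p = 1 in limma). It was detected on all 3 day 1 arrays with Wnt3a, at 5.27 to 6.14, and on all 3 with both factors, at 5.67 to 11.2. Let-7b* was detected on 2 of 3 control arrays at day 3, up to 19.2, and had 20.6 to 28.0 at day 5. Over these days the mature let-7b was undetected.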
